A study of Mus musculus with 8 samples.

Results

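The vomeronasal type 1 receptor genes of the mouse, whose symbols start with Vmn1r, were described in liver RNA of 2 congenic genotypes. Every gene with such a symbol in the RefSeq gene table was looked for on the array by its accession. The table lists 373 Vmn1r symbols, 231 of them protein coding, 141 pseudogenes and 1 a transcribed pseudogene. A probe was found for 167 of these genes (166 protein coding and the transcribed pseudogene Vmn1r-ps79), among 26698 named genes with a probe in all. The other 206 Vmn1r symbols had no probe by this match. Vmn1r65 is set against the rest of its family here because it had been seen to differ between the genotypes in these same arrays.

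Liver RNA of male mice was labelled with Cy3 and read on 8 Agilent expression arrays of 1 colour, 1 array per sample, all on 1 slide. The genotypes are Ltg/NZO.5.3N/N (NN, n = 4: arrays 1, 4, 6 and 7 of the labels' numbering) and Ltg/NZO.5.3N/B (NB, n = 4: arrays 2, 3, 5 and 8). Both are recombinant congenic lines from a cross of NZO/HiBomDife, the obese New Zealand Obese strain, with C57BL/6J, on the NZO background, and they differ in 5.3 Mbp of chromosome 18. Both genotypes ate a high-fat diet with 45% fat, and the labels give the age as 5 weeks and the end of feeding as week 5. Whether every array stands for an animal of its own is not stated in the labels. A p-value here therefore sets a difference only against the spread between these samples, which may be technical.

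Type 1 vomeronasal receptors are G protein-coupled receptors of sensory neurons in the vomeronasal organ, a chemosensory structure at the base of the nasal septum, where they detect small pheromone molecules. They signal through the G protein subunit encoded by Gnai2 and, further down, through the cation channel encoded by Trpc2. Their genes lie in clusters on several chromosomes, and each neuron chooses very few of them for expression. Textbooks describe no role of the family in liver.

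**Figure D1:**
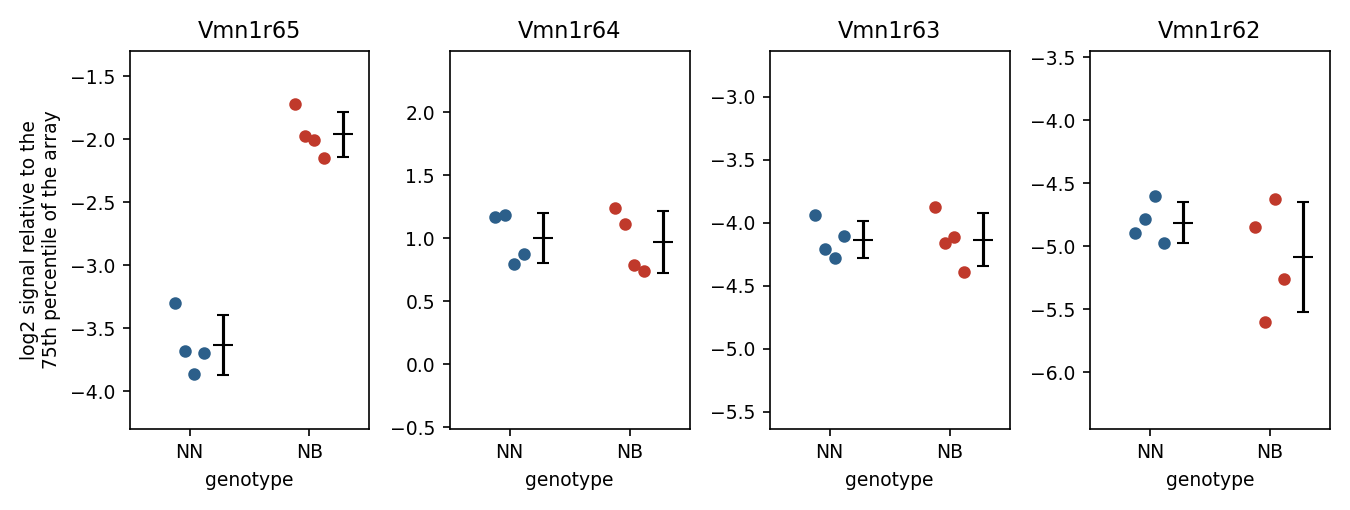
Log2 signal relative to the 75th percentile of the array for Vmn1r65 and the 3 nearest Vmn1r genes before it on chromosome 7, with 1 point per array (blue NN, red NB) and bars for the mean ± SD of 4 arrays; all panels span the same number of log2 units. The NB arrays of Vmn1r65 lie between −2.15 and −1.72 and the NN arrays between −3.86 and −3.30, while the genotypes overlap in Vmn1r64, Vmn1r63 and Vmn1r62.

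Each of the 167 genes was measured by 1 probe, so the reading of a gene is the reading of a stretch of about 50 bases. The Vmn1r65 probe, 51 bases long, is shown because the genotype difference rests on it. Its last 30 bases, read in the direction of the transcript as the array files give them, are printed with the same part of the probes of the neighbouring genes Vmn1r63 and Vmn1r62. Capitals mark AATAAA, the letters of the canonical polyadenylation signal.
Vmn1r65: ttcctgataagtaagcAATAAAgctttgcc
Vmn1r63: agacaatgccacccccAATAAAgatgtctg
Vmn1r62: atgccacccccAATAAAgatatctgcttca
The letters AATAAA were found in 5 of the 167 Vmn1r probes (2.99%), those of Vmn1r62, Vmn1r63, Vmn1r65, Vmn1r148 and Vmn1r210, against 6.40% of all 60273 probes. On the opposite strand they were found in 8 Vmn1r probes (4.79%), against 2.73% of all probes. The Vmn1r65 probe carried a stop codon in each of its 3 forward reading frames, as did that of the pseudogene Vmn1r-ps79. The other 165 Vmn1r probes had at least 1 open frame. Probes with no open frame made up 0% of 104 Vmn2r probes, 6 of 1004 Olfr probes and 9.14% of the 23841 probes of protein-coding genes. Where in its transcript the Vmn1r65 probe lies was not examined here, since the files list the probes as unmapped.

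Members of the family are alike in sequence, so exact runs of bases shared between probes were also searched on both strands. Matches across a mismatch were not counted, and transcripts outside the probes were not searched. In 33 of the 167 genes the probe shared a run of at least 20 bases with that of another Vmn1r gene, in 20 pairs. The pair with the longest run and a pair whose readings differed are printed, with the shared run in capitals.
Vmn1r193: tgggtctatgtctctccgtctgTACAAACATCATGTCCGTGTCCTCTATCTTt
Vmn1r216: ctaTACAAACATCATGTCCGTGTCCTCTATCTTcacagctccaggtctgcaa
Vmn1r119: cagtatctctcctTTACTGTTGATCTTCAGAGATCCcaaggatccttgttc
Vmn1r183: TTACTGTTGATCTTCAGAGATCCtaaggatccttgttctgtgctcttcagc
Vmn1r193 and Vmn1r216 shared 30 bases and both stood well above background on all 8 arrays, so transcripts of either could contribute to both readings. Vmn1r119 and Vmn1r183 shared an unbroken run of 23 bases, and after 1 mismatch the match went on to the end of the Vmn1r119 probe. Yet Vmn1r119 stood well above background on 8 arrays and Vmn1r183 on 1. Of the 33 genes with a shared run, 21 were above background on all 8 arrays and 8 on none. The Vmn1r65 probe shared no exact run of 20 bases with any other probe, and its likeness to other transcripts was not examined. Its longest run, 14 bases, was shared with 3 probes, none of a Vmn1r gene: on the same strand with Gm32124 (log2 difference between genotypes 0.07) and on the opposite strand with 2 transcripts that stood well above background on 0 and 1 array.

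The scanner software marks a spot as well above background when its signal clears the local background by a set margin. By that mark, most Vmn1r genes gave a signal in these livers: 126 of 167 (75.4%) on at least 4 of the 8 arrays and 100 (59.9%) on all 8. A further 26 were above background on 4 to 7 arrays, 9 on 1 to 3, and 32 (19.2%) on none. The share on at least 4 arrays was 57.4% of 101 genes for the type 2 vomeronasal receptors (Vmn2r), 87.7% of 1002 for the olfactory receptors (Olfr), 83.3% of 12 for the trace amine-associated receptors (Taar), 88.6% of 35 for the bitter taste receptors (Tas2r), and 90.1% for all named genes. Most genes of each of these chemosensory families cleared this mark in liver RNA, as did 10 of 10 hepatocyte markers on all 8 arrays. Negative-control spots carried it in 0 to 4 of 308 cases per array, at most 1.30%. The genes are counted by a mark of the software, and whether a marked spot holds transcript of its own gene was not tested.

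**Figure D2:**
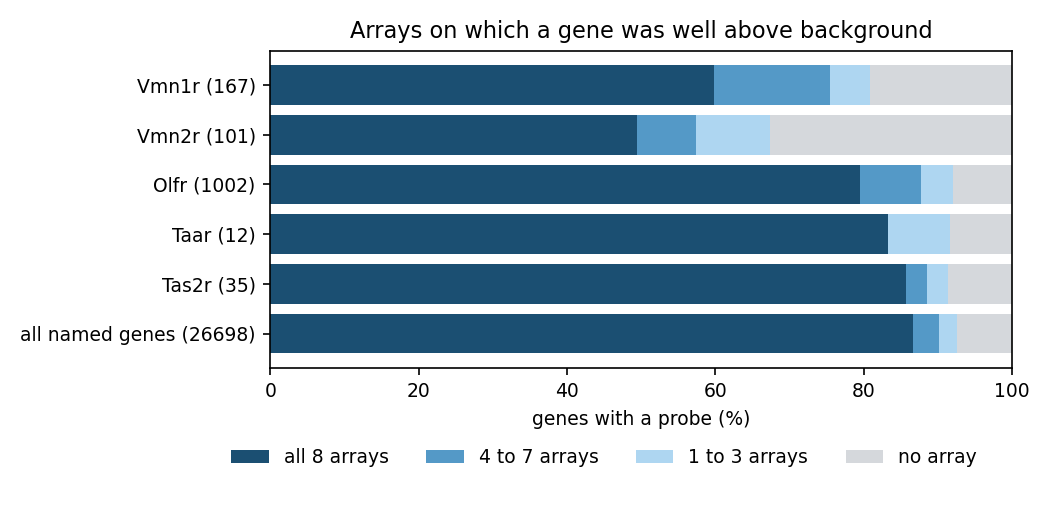
Share of genes (%) by the number of arrays on which the gene stood well above background, for 5 chemosensory receptor families and all named genes, with the number of genes in brackets. For Vmn1r, 59.9% were above background on all 8 arrays and 19.2% on none, against 49.5% and 32.7% for Vmn2r and 79.5% and 7.98% for Olfr.

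The share of genes that cleared the mark differed between the chromosomes that carry Vmn1r genes. On chromosome 17, 14 of 14 genes (Vmn1r224 to Vmn1r237) were above background on at least 4 arrays, and on chromosome 13, 32 of 35 (91.4%). The share was 36 of 48 (75%) on chromosome 6 and 43 of 69 (62.3%) on chromosome 7, which holds Vmn1r65. The only gene with a probe on chromosome 1, Vmn1r1, was above background on all 8 arrays.

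Detection went with the base content of the probe. The median cytosine content was 26.4% in the 100 Vmn1r probes above background on all 8 arrays, 23.5% in the 35 above it on 1 to 7, and 20.8% in the 32 above it on none. Adenine ran the other way, with medians of 19.8%, 21.6% and 25%. All probes of the array showed the same order, with cytosine medians of 25.5%, 21.8% and 18.9%. The Vmn1r65 probe, at 19.6% cytosine, was among the lower ones of its detection class. As an example of the letters, TCTCC, chosen after the values were seen, was searched on both strands, separately from AATAAA so that a letter could count for both. It was present in 42 of 167 Vmn1r probes (25.1%) and 12.7% of all probes. Of those 42 genes, 38 (90.5%) were above background on all 8 arrays, against 62 of the 125 without it (49.6%). Over all probes these shares were 91.6% and 70.5%. On the opposite strand TCTCC was present in 2 Vmn1r probes (1.20%) and 6.39% of all probes. Probes with and without it are printed below, with TCTCC in capitals. Vmn1r64 and Vmn1r58 were above background on all 8 arrays, Vmn1r123 on none.
Vmn1r64: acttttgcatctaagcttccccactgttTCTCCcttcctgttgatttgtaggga
Vmn1r58: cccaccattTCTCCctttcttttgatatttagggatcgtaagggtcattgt
Vmn1r123: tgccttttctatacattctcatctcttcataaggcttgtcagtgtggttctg

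**Figure D3:**
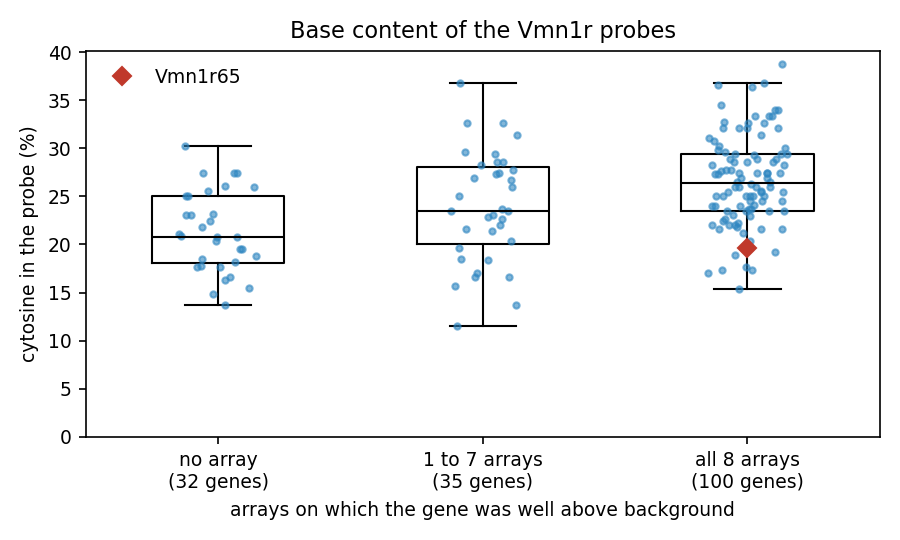
Cytosine content (%) of the 167 Vmn1r probes by the number of arrays on which they stood well above background, with 1 point per gene; boxes span the quartiles with the median as a line, whiskers reach 1.5 times the quartile range, and the red diamond is Vmn1r65. The medians rise from 20.8% over 23.5% to 26.4%, and the 3 groups overlap widely.

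Detection was also compared between genotypes. None of the 167 genes was above background on all 4 arrays of a genotype and on 0 of the other. The number of arrays above background was the same in both genotypes for 145 genes, higher in NB for 10 and higher in NN for 12. A difference was possible only in the 35 genes above background on 1 to 7 arrays, of which 13 had the same number in both genotypes. The same counts over all genes were not made. Per array, between 111 and 128 Vmn1r genes carried the mark, in a range where both genotypes lay.

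Vmn1r65 stood well above background on all 8 arrays. Its background-subtracted intensity was 54.7, 40.2, 30.7 and 37.8 in NN arrays 1, 4, 6 and 7, and 177, 131, 123 and 106 in NB arrays 2, 3, 5 and 8. Every NB array was brighter than every NN array, and the genotypes did not overlap. The spot was dim: its mean brightness before subtraction ran from 56.3 to 207, over a local background of 18 to 23. The log2 signal, set against the 75th percentile of all probes on the same array, was −3.30, −3.68, −3.86 and −3.70 in NN and −1.72, −1.97, −2.01 and −2.15 in NB. The means were −3.63 ± 0.24 in NN and −1.96 ± 0.18 in NB (SD, n = 4 each), a difference of 1.67 (SE 0.137) or 3.19-fold. Only 6 of the 42982 features compared differed by more in either direction. No p-value is given for this difference, because it is the one for which the gene was chosen.

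The slide held 2 rows and 4 columns of arrays, with 2 arrays of each genotype in a row and 1 of each in a column. The Vmn1r65 difference was 1.84 in row 1 and 1.51 in row 2. In the 4 columns it was 1.58, 1.71, 1.85 and 1.55, so NB was the higher array of each column. The 89 probes within 5 rows and columns of its spot on the array had a median log2 difference of −0.04, from −0.40 to 0.28, all far smaller than that of Vmn1r65. With normexp, a background correction that here adds an offset of 50 intensity units to every signal, the difference was 0.91 in place of 1.67, with the same direction.

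The rest of the family lay close to 0 in the same contrast. Of the 126 genes above background on at least 4 arrays, 124 could be compared. Most spots of Vmn1r40 (8 arrays) and Vmn1r151 (7 arrays) were marked as outliers by the software and left out. At an adjusted p under 0.05 in limma, 1 of the 124 Vmn1r genes was called, Vmn1r65, against 0.00698% of all features (3 of 42982), and nothing is read from this count because the gene was chosen on this contrast. As a description, that call was lost when any of NB arrays 2, 3 and 5 or NN arrays 4, 6 and 7 was left out, with the difference between 1.59 and 1.78 throughout. The genotypes did not overlap in 1 of the 124, again Vmn1r65, against 1.16% of all features, 0.426% with NB higher and 0.731% with NB lower. A difference of more than 2-fold either way was again that of Vmn1r65 only, against 0.0838% of all features. Over the other 123 genes the median difference was −0.01, as it was over all features, with 56 genes above 0 and 67 below. Differences ran from −0.67 in Vmn1r53 to 0.47 in Vmn1r75, and 105 genes (85.4%) lay within 0.25 of 0, against 92.3% of all features.

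**Figure D4:**
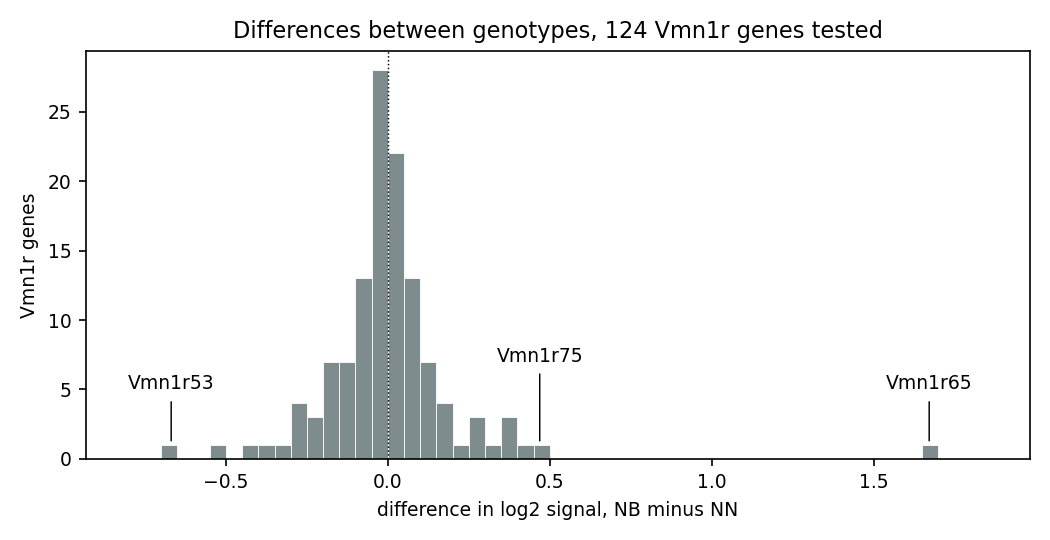
Number of Vmn1r genes by difference in log2 signal between genotypes (NB minus NN) for the 124 genes compared. Vmn1r65 lies at 1.67, and the other 123 lie between −0.67 (Vmn1r53) and 0.47 (Vmn1r75).

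How far small differences could be seen depended on the brightness of the spot. The median SE of a difference was 0.164 in the other 123 Vmn1r genes and 0.118 over all features. In the 97 genes above background on all 8 arrays the median pooled SD between arrays was 0.21, and the largest difference in size was that of Vmn1r30. In the 26 above background on 4 to 7 arrays the median pooled SD was 0.38, and the largest difference was that of Vmn1r53. For 115 of the 123 genes the 95% interval of the difference lay within a 2-fold change either way. In the remaining 8 (Vmn1r9, Vmn1r30, Vmn1r34, Vmn1r53, Vmn1r55, Vmn1r74, Vmn1r217 and Vmn1r229) a 2-fold change could not be told from none with these arrays.

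Among the receptors with the largest positive differences after Vmn1r65, Vmn1r75 was at −5.46 ± 0.23 in NB and −5.93 ± 0.34 in NN, a difference of 0.47 (SE 0.18). Its arrays ran from −5.77 to −5.23 in NB and from −6.25 to −5.51 in NN, so the genotypes overlapped. The gene was dim, well above background on 3 NB arrays and 1 NN array only. Vmn1r56 differed by 0.42 (SE 0.18), Vmn1r80 by 0.36 (SE 0.19) and Vmn1r74 by 0.35 (SE 0.49), all with overlapping arrays. That of Vmn1r74 was −0.15 without NN array 6. Vmn1r218 differed by 0.37, but NB array 8 alone stood high, at −3.43 against −4.72 to −4.46 in the other NB arrays, and the difference was 0.09 without it. With normexp the differences of Vmn1r75 and Vmn1r74 were −0.01 and −0.02, so their sign changed with the background correction. Those of Vmn1r56, Vmn1r218 and Vmn1r80 were 0.07, 0.06 and 0.11 with it.

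Of the 5 largest negative differences, 3 fell to near 0 without NB array 8. Vmn1r9 was at −5.75, −5.79, −5.73 and −7.40 in NB arrays 2, 3, 5 and 8, and at −5.52, −5.63, −5.47 and −6.02 in NN arrays 1, 4, 6 and 7. Its difference was −0.51 (SE 0.36), and −0.09 without NB array 8. Vmn1r9 was dim, well above background on 1 NB array and 3 NN arrays. On NB array 8 its intensity was 2.78, near the negative-control median of 1.82 on that array. Vmn1r217 was at −0.81, −0.98, −0.95 and −2.33 in NB arrays 2, 3, 5 and 8 and between −0.93 and −0.85 in NN. That difference was −0.39 with NB array 8 and −0.04 without it. Vmn1r30 behaved alike, with −5.36 on NB array 8 against −4.11 to −3.54 on the other NB arrays, and went from −0.44 to −0.05. Vmn1r222 went from −0.32 to −0.18. With normexp on all arrays, Vmn1r9, Vmn1r30, Vmn1r217, Vmn1r222 and Vmn1r53 differed by −0.12, −0.13, −0.31, −0.09 and −0.21. Vmn1r53, unlike these, was lowest on NB array 5 (−5.88), and its difference was −0.96 without NB array 8 and −0.30 without NB array 5, against −0.67 with all arrays. Of the 122 other Vmn1r genes with a value on every array, 33 were lowest on NB array 8, more than on any other array, and 18 were highest there.

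**Figure D5:**
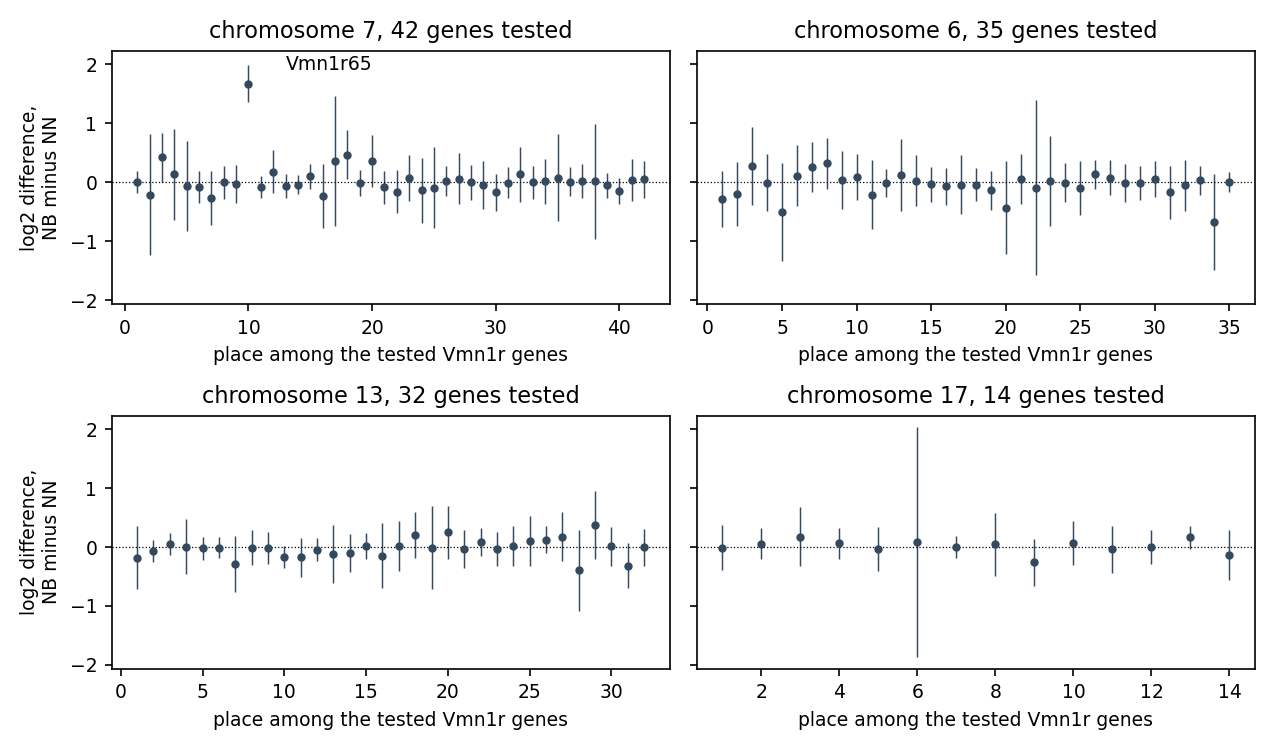
Log2 difference between genotypes (NB minus NN) with its 95% interval for the Vmn1r genes compared, in gene order along chromosomes 7, 6, 13 and 17. Vmn1r65, at place 10 of 42 on chromosome 7, lies at 1.67, and its neighbours in the plot lie near 0.

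The nearest receptor genes with a probe on each side of Vmn1r65 on chromosome 7 were read in the same contrast. Before it, Vmn1r64, Vmn1r63, Vmn1r62 and Vmn1r61 lie 3, 5, 9 and 12 genes away. Vmn1r64 was at 0.97 ± 0.24 in NB and 1.01 ± 0.20 in NN, a difference of −0.03 (SE 0.144). Vmn1r63 was at −4.14 ± 0.21 in NB and −4.13 ± 0.15 in NN. Vmn1r62 differed by −0.27 (SE 0.202), and its NB arrays, from −5.60 to −4.63, overlapped those of NN, from −4.98 to −4.60. That difference was −0.10 without NB array 3 and −0.43 without NB array 5. Vmn1r61, the next gene, was above background on no array. After Vmn1r65 the next Vmn1r genes with a probe are far off in gene order, with Vmn1r66, Vmn1r67, Vmn1r68 and Vmn1r69 at 138, 144, 148 and 150 genes away. Vmn1r66 differed by −0.08, Vmn1r68 by 0.18 (0.02 without NN array 6) and Vmn1r69 by −0.06, and Vmn1r67 was above background on 1 array. The nearest genes of any kind compared on that side, Nlrp4c, an NLR family gene, and Zfp787, a zinc finger gene, 5 and 7 genes away, differed by 0.11 and −0.10. The 42 genes compared on chromosome 7 had a median difference of 0.00066, the 35 on chromosome 6 of −0.01, the 32 on chromosome 13 of −0.01 and the 14 on chromosome 17 of 0.03.

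Likeness to Vmn1r65 was measured by Pearson's r over the 8 arrays for 23631 named genes, as a description that includes the genotype difference. The highest values belonged to F830016B08Rik (0.995), Csf1r (0.975), Cdk2 (0.960) and Gm4951 (0.960). F830016B08Rik, Csf1r and Gm4951 lie on chromosome 18, the chromosome of the congenic segment, and differed between genotypes by 3.66, 0.46 and 0.86 with NB higher. Cdk2, on chromosome 10, differed by 0.10. The most similar Vmn1r gene was Vmn1r75, at 0.756. Once the genotype means were taken out, the receptors with the highest r were Vmn1r48 (0.935), Vmn1r63 (0.911) and Vmn1r119 (0.894), over 122 genes with a median of 0.359 and a lowest value of −0.781. These 3 genes differed between genotypes by −0.01, −0.00067 and −0.05. The receptors other than Vmn1r65 had a median deviation per array between −0.08 (NB array 5) and 0.10 (NB array 2). Such a shift of the family between arrays was not taken out of these r values.

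Slide row, unlike genotype, played no part in the choice of the genes, and was tested within genotype in limma. No Vmn1r gene was called at an adjusted p under 0.05, and none of all 42978 features was. At an unadjusted p under 0.05 there were 4 of 124 Vmn1r genes and 1329 features (3.09%). For Vmn1r65 row 2 was higher by 0.11 (SE 0.141, limma adjusted p = 1.00). The largest row difference among the receptors was that of Vmn1r229, at 1.70 (SE 0.673, limma adjusted p = 1.00). Its signal was −2.78 on NN array 7 and −3.13 on NB array 3, and between −6.14 and −5.48 on the other 6 arrays. Vmn1r57 was higher in row 2 by 0.77 (SE 0.226) and Vmn1r55 lower, at −0.55 (SE 0.438), neither past the threshold. Differences between slide columns were not tested. For the receptors other than Vmn1r65, the median deviation from a gene's own mean followed the columns. It was 0.09, 0.10, 0.07 and 0.06 on arrays 1 to 4, in columns 1 and 2. On arrays 5 to 8, in columns 3 and 4, it was −0.08, −0.06, −0.02 and −0.07.

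Genes of vomeronasal signalling, not all of them partners of type 1 receptors, were measured as well. All 16 genes of a vomeronasal signalling list were compared, 15 of them above background on all 8 arrays, and limma called none, against 0.00698% of all features, a share at which no call would be looked for in a list of this size. Their median difference was 0.01, against −0.01 over all features. Gnai2, the G protein subunit that couples to type 1 receptors, was at 3.28 ± 0.06 in NB and 3.20 ± 0.11 in NN. Trpc2, the channel, was at 0.25 ± 0.13 in NB and 0.28 ± 0.09 in NN. Rtp1 and Rtp2, which carry odorant receptors to the cell surface, differed by −0.02 and 0.05. The list ran from −0.27 in Gng8, a G protein gamma subunit, to 0.16 in Kcnn3, a calcium-activated potassium channel. The other genes of the list (Gnao1, Gnb1, Gng13, Plcb2, Itpr3, Ano1, Ano2, Kcnj3, Reep1 and Slc12a2) differed by at most 0.08 either way. Of these 16 genes, several are expressed widely outside the nose.

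Markers of sensory neurons and of other cell types were read beside the receptors. Among 15 markers of vomeronasal or olfactory sensory neurons, 12 were above background on all 8 arrays, among them Omp, the olfactory marker protein, and Stoml3 was above it on none. Their summed level, as a mean deviation per array, ran from −0.21 to 0.10 in NB and from −0.08 to 0.18 in NN, and none was called. Of 8 genes on a list of vomeronasal non-classical class I genes, H2-M10.1 to H2-M10.5 were above background on no array, H2-M1 on 1 and H2-M9 on 4. H2-M10.6 was above it on all 8, at −1.12 ± 0.03 in NB and −1.07 ± 0.09 in NN. Kupffer cell markers had a median difference of 0.20 over 6 genes, with levels from −0.22 to 0.27 in NB and from −0.38 to 0.17 in NN. Hepatocyte, cholangiocyte, lymphocyte and red blood cell markers had medians of −0.02, −0.02, −0.02 and 0.05, over 10, 4, 6 and 3 genes. Levels overlapped between genotypes in all of these lists, limma called no member (0.00698% of all features were called), and their part in the Vmn1r65 difference was not tested. In whole liver, fewer cells of a type and less RNA per cell cannot be told apart.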

How the data were processed

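The authors quantified the spots with Agilent Feature Extraction, in version 11.5.1.1 per the file headers and 9.1 per the submitters' processing notes. The deposited intensity of a spot (processed signal) is background-subtracted and detrended but not normalized between arrays, per the file headers; mean and local background intensities stand beside it. The deposited scanner files also carry other values, 0 or 1 marks of the software that say whether a spot was well above background, was saturated or was an outlier. The deposited value table of the authors holds linear intensities in 59448 rows; its 8 columns have the same sorted values and a median of 84.2 each, and how they were scaled is not given in the sources used here. The genome build of the headers is mm9, and no coordinates are used. The 75th percentile of the intensity was between 445 and 584 per array, 75.1% to 80.2% of probes stood well above background, and the number of arrays limits the precision.

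Probes other than controls were named by accession without version through the RefSeq table of the GRCm38.p6 assembly (31064 of 60273 probes), which also gave chromosomes and gene order. Outlier-marked spots (248 to 621 per array) were treated as missing; 0 were saturated. The 75th percentile of the array was subtracted from the log2 intensity, probes well above background on at least 4 arrays were kept, and a gene was represented by its brightest probe, which left 42982 features. Genotypes, and slide rows with genotype in the model, were compared in R 4.3.3 with lmFit and eBayes of limma 3.58.1 (two-sided, Benjamini-Hochberg over all features, threshold 0.05); probe sequences, counts and figures were made in Python 3.11.15. Probe sequences come from the scanner files. On simulated data with the spread of these arrays (42512 features, NB against NN, 50 changed at each size), 36% of log2 changes of 0.5 and 78% of changes of 1 were called, and 100% of 2 and of 3, with 10 false calls. Noise was drawn independently for each array, and the adjusted threshold eases as more features change. These shares therefore hold for the simulation and are not the sensitivity reached with these arrays.

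The receptors, lists, tests and alternatives were chosen with earlier results of these data known. Named were Vmn1r65; the 5 other Vmn1r genes with the largest difference in each direction; the 4 nearest on each side and the 2 nearest compared genes of any kind; the 5 genes (1 of them not reported here) and 3 receptors most like Vmn1r65; receptors whose genotypes did not overlap; and the signalling list. Protein identity to Vmn1r65, also in that rule, was not used here, and no receptor had several probes. Genes named for the sequence of their probe, for wide intervals or for slide row were chosen after their values were seen. Alternatives were normexp (offset 50), quantile normalization, scaling to the median or to the 75th percentile of probes seen on all arrays, values of the authors' table, other filters on dim probes, outlier-marked spots kept, the mean of a gene's probes, the variance model, slide row or column as a block, an adjusted p of 0.1, and each array left out.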

Additional observations from a re-analysis of the deposited data

Results flagged for a closer look

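Single arrays far from the other 3 of their genotype were looked for in 42 sets of 4 values, and 2 were found. The sets were those of the compared receptors named by rule, of the number of Vmn1r genes above background and of the median deviation of the receptors other than Vmn1r65. Chance alone marks about 5% of sets, so 2 of 42 is no more than chance gives, and genes named for large differences favour such arrays. Vmn1r9 read −7.40 on NB array 8 against −5.79 to −5.73 on the other NB arrays. Vmn1r217 read −2.33 on NB array 8 against −0.98 to −0.81 on the other NB arrays. Nothing further is read from these values.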

How the results depend on the processing

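Vmn1r65 was higher in NB under all alternatives run. Its log2 difference of 1.67 was 0.91 with normexp, whose offset of 50 is near its background-subtracted intensity in NN; all others lay within the spread between arrays, from 1.51 within slide row 2 to 1.84 within slide row 1, and between 1.59 and 1.78 with each array left out. Its call was lost when NB 2, NB 3, NN 4, NB 5, NN 6 or NN 7 was left out, so that 0 to 1 Vmn1r genes were called, with 2 to 3 features called in all; every other alternative called 1. The receptors with non-overlapping genotypes, 1 in the main setting, were 2 with quantile normalization, median scaling and the authors' value table (Vmn1r236 added), 2 with normexp (Vmn1r232 added), 2 with no filter on dim probes (Vmn1r78 added), and 2 to 6 with an array left out, the most without NN 1. Fewer arrays make non-overlap easier to reach. The share over all features is not set beside these counts here, so nothing is read from them. Features called numbered 3; they were 5 when all probes of a gene were averaged, 4 with the authors' value table, with outlier-marked spots kept and with a trended robust variance, and 2 with probes above background on all 8 arrays. In the slide row test, for which alternatives were added after the data were seen, normexp gave 2 called features in place of 0. The median of the other receptors stayed between −0.03 and 0.02. The number of receptors above background, 126, was 100 when all 8 arrays were asked for and 146 with the software's weaker mark (positive and significant). No paired analysis was possible because, as far as sample numbers go, these run from 1 to 8 through both genotypes and none is shared. Slide columns, each with 1 array of each genotype, could be used as a block: the Vmn1r65 difference was then 1.67 (SE 0.0838) and 3 features were called. Dim spots limit what can be seen, since 26 of the other receptors were not above background on every array.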
